A study of Mus musculus with 12 samples.

Results

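Lyz2, S100a8, S100a9, Csf1r, Itgam, Cd68, Tyrobp, Cst3, Mpeg1 and Spi1 are 10 genes that monocytes, macrophages and neutrophils express strongly, and here they were followed in RNA-Seq libraries of purified CD4+ T cells. They were taken by symbol from a table of 35275 genes, and all 10 were among the 13115 genes whose mean over the libraries reached 0.5 FPKM and which were tested. FPKM counts the sequenced fragments of a gene per base of transcript and relative to library size, so levels can be set side by side between genes. A gene was called at a limma adjusted p under 0.05. In anti-CD45RB-treated B6 mice, 9 of the 10 genes were called higher than in untreated B6 mice, against 8.74% of all genes tested. Tyrobp was 8.60-fold and Cst3 1.79-fold higher, and all 10 differences were positive. In SLE123 mice none of the 10 was called, where 0.0381% of all genes were called, and 9 of the 10 differences were negative.

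The 12 libraries came from 12 female mice aged 9 to 12 weeks, with 3 mice in each of 4 groups. B6 is C57BL/6 in the labels and C57BL/6J in the methods, and SLE123 (labelled B6.NZMSle1/Sle2/Sle3) is a congenic strain on the B6 background that holds Sle1, Sle2 and Sle3, chromosome regions that confer susceptibility to lupus. Treated mice of both strains had received 100 µg of anti-CD45RB, clone MB23G2, in each of 5 injections between day 0 and day 7. Antibody MB23G2 binds the RB form of the surface phosphatase CD45, and the untreated mice were given no agent by their labels. Negative selection on magnetic columns was used to obtain the CD4+ T cells, so that unwanted cells were bound and the CD4+ T cells flowed through. The methods also speak of sorted CD25+ and CD25- cells, and the sample titles name no such fraction. Mice are called here by the number in their titles.

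Myeloid cells arise from bone marrow progenitors in which the ETS-family factor PU.1, encoded by Spi1, opens the myeloid programme together with C/EBP factors. Monocytes and macrophages depend on the receptor Csf1r for survival, while neutrophils carry large amounts of the calcium-binding proteins S100a8 and S100a9. In the spleen and lymph nodes these cells lie among the lymphocytes, and depletion columns are meant to remove them before RNA is made. None of the 10 genes is a T cell gene in the usual sense, although Cst3 and Cd68 are made at low levels by many cell types.

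The defining T cell transcripts were high throughout. The 9 T cell markers Cd3d, Cd3e, Cd3g, Cd4, Cd247, Lck, Cd2, Cd5 and Cd28 each lay between 58.4 and 498 FPKM in every library, and Cd8a did not exceed 1.92 FPKM, although Cd8b1 reached 17.4 FPKM. Libraries held 13562933 to 23641603 fragments (median 16827791), so that a gene of 2000 bases with 3 fragments would be listed at 0.0634 to 0.111 FPKM. Such floors and the exact counting intervals below cover counting error only, because the reads carry no molecular identifiers. The limma intervals and p-values measure only the spread between these mice. In bulk RNA, fewer cells of a type and less RNA per cell cannot be told apart.

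A pair of libraries stood apart from their groups. Untreated SLE123 mouse 3 had the deepest library, with 12.2% of its fragments in immunoglobulin genes against 5.06% and 6.76% in the other untreated SLE123 mice. The same library held 11.5 to 14.0 FPKM of the complement genes C1qa, C1qb and C1qc, which tissue macrophages make. Treated SLE123 mouse 1 held 28.2 FPKM of the liver transcript Alb, as all 6 B6 libraries did at 24.7 to 30.7 FPKM, while 5 liver genes together summed to at most 0.483 FPKM in the other 5 SLE123 libraries. The SLE123 treatment differences of the 10 genes are given with and without untreated mouse 3, and those of S100a8 and S100a9 also without treated mouse 1.

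Spi1 (chr2:91082390-91115756, GRCm38) encodes PU.1, the regulator at the head of the group. Untreated B6 mice 3, 4 and 5 had 0.701, 0.788 and 0.642 FPKM, and treated B6 mice 1, 3 and 5 had 5.36, 3.63 and 3.86 FPKM. In SLE123 mice 1, 2 and 3 the level was 5.35, 6.71 and 10.6 FPKM without treatment and 2.80, 3.89 and 4.77 FPKM after it. Every untreated B6 mouse lay below every other mouse of the study, and in SLE123 all treated mice lay below all untreated ones. Spi1 was 6.03-fold higher in treated than untreated B6 mice, a difference of 1.61 ± 0.131 (SE) on the log2(FPKM + 1) scale (limma, adjusted p = 0.00111). In SLE123 the difference was -0.80 on that scale (95% interval -1.38 to -0.22, limma, adjusted p = 0.452), and -0.56 without untreated mouse 3. Adding 1 before taking the logarithm makes these differences smaller than the folds for genes at low levels.

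Of 8 factors that act with or after PU.1 in blood cells, 7 were tested. In treated B6 mice 1 rose, where 8.74% of all genes were called higher. This was Irf8, needed for monocytes and dendritic cells, which went from 4.99 to 5.43 FPKM in untreated to 8.16 to 11.6 FPKM in treated B6 mice (log2 difference 0.88, limma, adjusted p = 0.00823). In SLE123 none of the 7 was called with treatment, where 0.0381% of all genes were called. In untreated mice, 6 of the 7 were higher and 1 was lower in SLE123 than in B6. Over all genes, 22.8% were called higher and 20.1% lower in that comparison. Among the higher ones, Cebpa, the factor that commits progenitors to the granulocyte and monocyte lines, was 1.72 to 2.88 FPKM in untreated B6 and 20.7 to 22.7 FPKM in untreated SLE123 mice (log2 difference 2.74, limma, adjusted p = 2.47e-05).

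Csf1r (chr18:61100598-61132149), the receptor for the growth factors Csf1 and Il34, had the lowest mean of the 10 genes over the 12 mice, 2.05 FPKM, just under the 2.14 FPKM of Itgam. Untreated B6 mice 3, 4 and 5 had 0.514, 0.223 and 0.185 FPKM, and treated B6 mice 1, 3 and 5 had 2.62, 1.61 and 1.48 FPKM. Untreated SLE123 mice 1, 2 and 3 had 3.18, 2.21 and 9.25 FPKM, and treated SLE123 mice 1, 2 and 3 had 1.15, 1.05 and 1.16 FPKM. The B6 groups did not overlap, nor did the SLE123 groups, and untreated SLE123 mouse 3 stood far above all others. The rise in B6 was 6.19-fold (log2 difference 1.14 ± 0.170, limma, adjusted p = 0.00878), and 9.32-fold without untreated mouse 3. Its call in B6 was lost when all 12 mice were fitted together (adjusted p = 0.0722 by limma). In SLE123 the log2 difference was -1.28 (95% interval -2.21 to -0.36, limma, adjusted p = 0.452), and without untreated mouse 3 it was -0.79.

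Its ligands differed in level. Csf1 rose with treatment in B6, from 0.781 to 1.21 FPKM in untreated to 2.84 to 4.17 FPKM in treated mice (log2 difference 1.16, limma, adjusted p = 0.00427), and was 11.9 to 15.8 FPKM in untreated SLE123 mice. Il34 did not exceed 0.0707 FPKM in any library and was too low to test. Csf1 is also made by activated T cells, so it is not a marker of myeloid cells.

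Tyrobp (chr7:30413760-30417585), also called DAP12, is an adapter with an activating motif through which Trem and NK receptors signal. It had 4.51, 1.27 and 2.75 FPKM in untreated B6 mice 3, 4 and 5 and 28.0, 24.3 and 21.2 FPKM in treated B6 mice 1, 3 and 5. In SLE123 mice 1, 2 and 3 it had 11.3, 14.5 and 22.8 FPKM without treatment and 6.74, 6.77 and 5.70 FPKM with it. All treated B6 mice were above all untreated B6 mice, and the order was the opposite in SLE123, again without overlap. The difference in B6 was 8.60-fold (log2 difference 2.81 ± 0.298, limma, adjusted p = 0.00266). In SLE123 it was -1.16 on the log2 scale (95% interval -1.70 to -0.62), with an adjusted p of 0.308 by limma that was the smallest of the 10 genes in that strain. Without untreated SLE123 mouse 3 it was -0.90.

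Of 10 partners of ITAM adapters, 5 were high enough to test. In treated B6 mice 3 of the 5 rose, against 8.74% of all genes. Fcer1g, the related adapter of Fc receptors, went from 1.89 to 3.50 FPKM to 12.4 to 18.7 FPKM (log2 difference 2.30, limma, adjusted p = 0.00155). The kinase Syk and the phospholipase Plcg2, both also used by B cells, rose by 1.49 and 1.46 on the same scale (limma, adjusted p = 7.91e-04 and 7.52e-04). In SLE123 none of the 5 was called, where 0.0381% of all genes were called, and all 5 differences were negative. Trem1 and Trem2, receptors that pair with Tyrobp, stayed at or under 0.142 FPKM in all libraries.

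Itgam (chr7:128062640-128118491) encodes the αM chain of the integrin Mac-1, also known as CD11b, and its pattern set it apart from the other 9 genes. Untreated B6 mice 3, 4 and 5 had 1.43, 1.96 and 1.62 FPKM, and treated B6 mice 1, 3 and 5 had 5.60, 3.61 and 4.59 FPKM. SLE123 mice 1, 2 and 3 had 1.20, 0.702 and 1.38 FPKM without treatment and 1.52, 1.12 and 0.999 FPKM with it. The 3 treated B6 mice were the highest of the 12, and both SLE123 groups overlapped each other. Itgam was 2.76-fold higher in treated B6 mice (log2 difference 1.06 ± 0.146, limma, adjusted p = 0.00672), while the difference in SLE123 was 0.09 (95% interval -0.30 to 0.47, limma, adjusted p = 0.847) and 0.19 without untreated mouse 3.

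Other β2 integrin chains were given by the same table. Itgb2, the β chain with which Itgam pairs, was between 183 and 241 FPKM in every library, and Itgal, the partner chain of lymphocytes, between 151 and 252 FPKM. Of the 4 chains tested, 1 rose in treated B6 mice, namely Itgax (CD11c), a marker of dendritic cells, from 0.230 to 0.460 FPKM to 2.72 to 3.29 FPKM (log2 difference 1.59, limma, adjusted p = 6.53e-04). None of the 4 was called in SLE123. Over all genes, 8.74% were called higher in treated B6 mice and 0.0381% were called in SLE123.

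S100a8 (chr3:90668978-90670035) and S100a9 (chr3:90692632-90695721) lie 22597 bases apart and encode both chains of calprotectin, the main cytosolic protein of neutrophils. The longest reading frames of their transcripts were 63.0% identical over 270 aligned bases. S100a8 had 2, 0 and 1 fragments in untreated B6 mice 3, 4 and 5, which is 0.316, 0 and 0.159 FPKM, and it had 3.76, 6.54 and 7.43 FPKM in treated B6 mice 1, 3 and 5. SLE123 mice 1, 2 and 3 had 6.48, 6.42 and 15.1 FPKM without treatment and 13.6, 3.52 and 4.73 FPKM with it. S100a8 was close to absent in untreated B6 mice and present in all others, and the SLE123 groups overlapped. Per fragment of depth, the ratio of treated to untreated B6 mice was 39.8, with an exact 95% counting interval of 13.3 to 196 because the untreated group held 3 fragments in all.

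S100a9 followed its partner. Untreated B6 mice 3, 4 and 5 had 0.478, 0.320 and 0.958 FPKM, and treated B6 mice 1, 3 and 5 had 5.97, 6.24 and 7.45 FPKM. SLE123 mice 1, 2 and 3 had 6.41, 8.35 and 11 FPKM without treatment and 14.0, 3.27 and 2.63 FPKM after it. The B6 groups were far apart, whereas the treated SLE123 mice straddled the untreated ones. In B6 the log2 difference was 2.54 ± 0.222 for S100a8 and 2.27 ± 0.159 for S100a9 (limma, adjusted p = 0.00143 and 7.52e-04). In SLE123 it was -0.41 (95% interval -1.56 to 0.73) for S100a8 and -0.61 (-1.83 to 0.60) for S100a9, with limma adjusted p-values of 0.733 and 0.627.

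Treated SLE123 mouse 1, the library with liver transcripts, was the highest of the treated SLE123 mice for both genes. Without it the SLE123 differences were -0.92 for S100a8 and -1.26 for S100a9, and without untreated SLE123 mouse 3 they were -0.04 and -0.44. No call was gained in either case (limma, adjusted p between 0.457 and 0.976). In treated SLE123 mouse 1, S100a8 was 11.9 times Csf1r in FPKM, against 1.63 to 4.08 times in the other 5 SLE123 libraries.

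Of 6 related S100 proteins and receptors, all tested, 4 rose in treated B6 mice, against 8.74% of all genes. None was called in SLE123, where 0.0381% of all genes were called. S100a6 went from 15.7 to 18.6 FPKM to 32.2 to 35.1 FPKM (log2 difference 0.94, limma, adjusted p = 7.52e-04) and S100a4 from 18.7 to 24.5 FPKM to 44.9 to 54.4 FPKM (1.23, adjusted p = 0.00187), and both are also made by memory T cells. Tlr4, a receptor for calprotectin, did not exceed 0.181 FPKM in B6 and lay between 0.801 and 2.24 FPKM in SLE123 mice.

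Lyz2 (chr10:117277331-117282321), the lysozyme of myeloid cells, had the largest difference of the 10 genes in B6 on the log2(FPKM + 1) scale. As a ratio of fragments per depth it was 13.1, below the 39.8 of S100a8 (exact 95% counting interval 13.3 to 196). Untreated B6 mice 3, 4 and 5 had 6.41, 1.66 and 3.14 FPKM, and treated B6 mice 1, 3 and 5 had 94.7, 30.1 and 27.7 FPKM. SLE123 mice 1, 2 and 3 had 23.4, 21.1 and 46.3 FPKM without treatment and 16.8, 12.7 and 10.6 FPKM with it. Treated B6 mouse 1 was well above its group mates, and neither strain's groups overlapped. The B6 difference was 13.6-fold (log2 difference 3.34 ± 0.539, limma, adjusted p = 0.0116). Without treated mouse 1 it was 7.72-fold (log2 difference 2.78), without untreated mouse 3 it was 21.2-fold, and with no filter on low values its call was lost (limma, adjusted p = 0.0636). In SLE123 it was -1.05 (95% interval -1.76 to -0.35, limma, adjusted p = 0.447), and -0.71 without untreated mouse 3. Lyz1, a neighbouring lysozyme gene with 95.1% identity to Lyz2 over 447 aligned coding bases, was listed at 0.141 FPKM or less in every library.

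Cst3 (chr2:148871722-148875692), the secreted cathepsin inhibitor cystatin C, was the most abundant of the 10 genes. It had 32.7, 33.6 and 39.7 FPKM in untreated B6 mice 3, 4 and 5 and 65.7, 65.8 and 58.7 FPKM in treated B6 mice 1, 3 and 5. In SLE123 mice 1, 2 and 3 it had 84.6, 110 and 129 FPKM without treatment and 62.4, 75.9 and 78.6 FPKM with it. Replicates lay close together, and the groups did not overlap within either strain. Cst3 rose 1.79-fold in B6 (log2 difference 0.83 ± 0.0816, limma, adjusted p = 0.00222). Its SLE123 difference was -0.56 (95% interval -0.96 to -0.16, limma, adjusted p = 0.450), and -0.42 without untreated mouse 3.

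Mpeg1 (chr19:12460779-12465283), which encodes the pore-forming protein perforin-2 of phagocytes and is also expressed by B cells, had 1.76, 0.829 and 1.53 FPKM in untreated B6 mice 3, 4 and 5. Treated B6 mice 1, 3 and 5 had 13.1, 10.2 and 6.24 FPKM. SLE123 mice 1, 2 and 3 had 7.12, 4.95 and 16.3 FPKM without treatment and 4.15, 4.64 and 4.36 FPKM with it. Treated mice were separated from untreated mice in both strains, upward in B6 and downward in SLE123. The B6 rise was 7.16-fold (log2 difference 2.16 ± 0.262, limma, adjusted p = 0.00432). The SLE123 difference of -0.81 (95% interval -1.65 to 0.03, limma, adjusted p = 0.469) was -0.37 without untreated mouse 3.

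Cd68 (chr11:69664213-69666153), a glycoprotein of the late endosome and lysosome, was the member that was not called in B6. Untreated B6 mice 3, 4 and 5 had 5.95, 4.27 and 4.55 FPKM, and treated B6 mice 1, 3 and 5 had 9.11, 6.80 and 4.83 FPKM. SLE123 mice 1, 2 and 3 had 7.13, 6.96 and 12.1 FPKM without treatment and 4.20, 3.97 and 4.92 FPKM with it. One treated B6 mouse lay within the untreated range, and the SLE123 groups did not overlap. The log2 difference was 0.39 (95% interval -0.09 to 0.88) in B6 and -0.82 (-1.30 to -0.35) in SLE123, with limma adjusted p-values of 0.233 and 0.423. Without untreated SLE123 mouse 3 the latter difference was -0.59.

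Of 12 lysosomal genes and cathepsins in a list of their own, 11 were tested. In treated B6 mice 8 rose, against 8.74% of all genes, and the median log2 difference of the list was 0.25. The largest was that of Ctsh, a cathepsin of antigen-presenting cells, from 0.222 to 0.362 FPKM to 2.86 to 3.84 FPKM (log2 difference 1.71, limma, adjusted p = 5.93e-04). The granulin precursor Grn rose by 0.81 (limma, adjusted p = 0.00292), and the abundant membrane protein Lamp1 by 0.21 (adjusted p = 0.0113). In SLE123 none of the 11 was called, where 0.0381% of all genes were called.

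**Figure D1:**
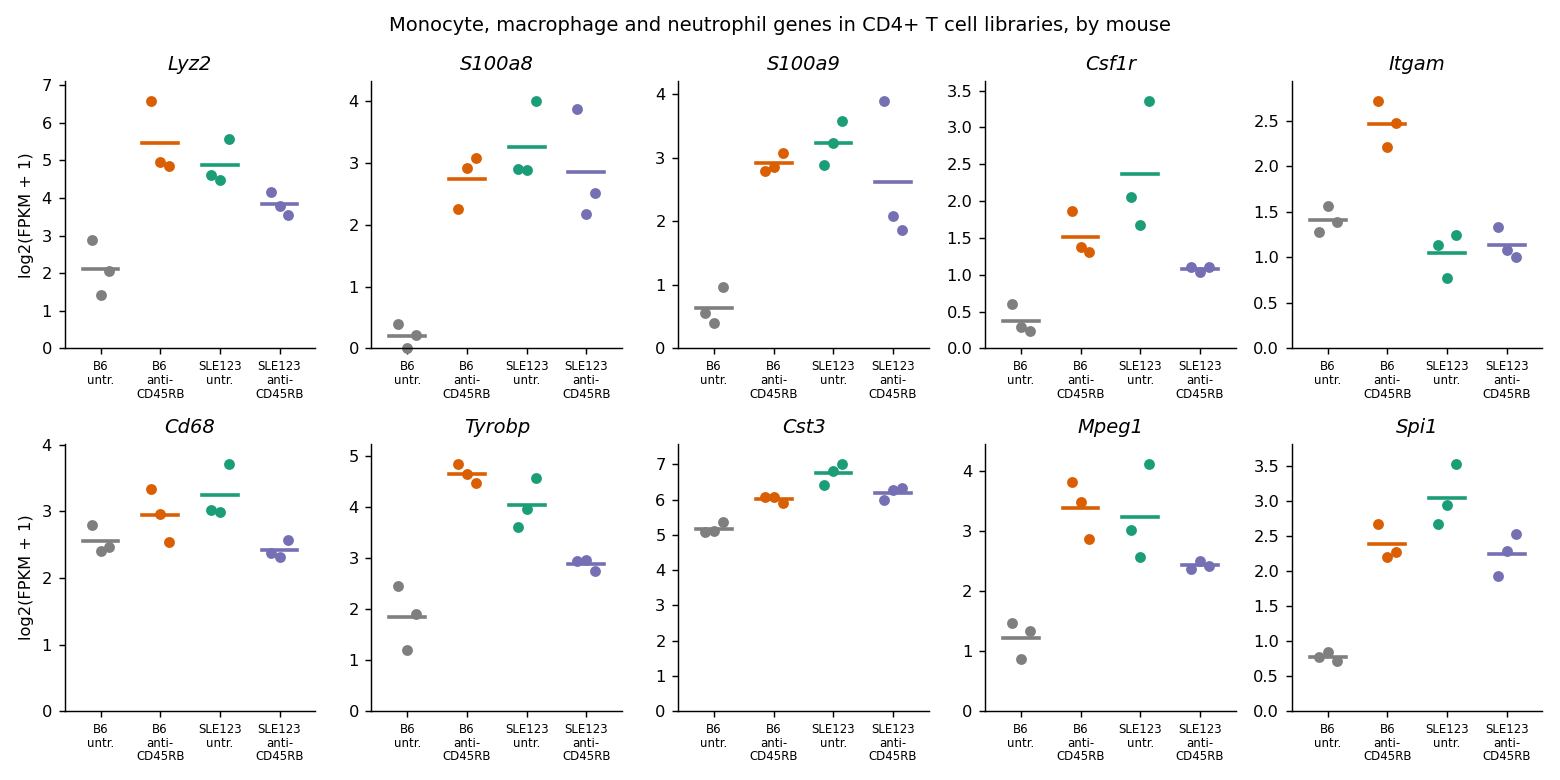
Level of each of the 10 genes as log2(FPKM + 1) in each of the 12 mice, with 3 mice per group as points in the order of their numbers and the group mean as a line. In 9 panels all treated B6 mice lie above all untreated B6 mice (Cd68 is the exception), and Itgam is the gene for which both SLE123 groups lie below both B6 groups on average.

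Promoter sequence is printed for 3 genes, namely S100a9 (near absent in untreated B6 mice, high in all other groups), Itgam (high in treated B6 mice) and Cd68 (not called in B6). Not printed are Lyz2, Cst3 and Mpeg1, which with treatment were higher in B6 and lower in SLE123, both without overlap. Each printed run is the 250 bases before the RefSeq start on the gene's strand (GRCm38.p6), and each lies outside the GENCODE gene. Capitals mark matches on either strand to GAGGAA, the core bound by PU.1, or to TTNNGCAA, letters of a C/EBP site.
S100a9, chr3:90695722-90695971, minus strand: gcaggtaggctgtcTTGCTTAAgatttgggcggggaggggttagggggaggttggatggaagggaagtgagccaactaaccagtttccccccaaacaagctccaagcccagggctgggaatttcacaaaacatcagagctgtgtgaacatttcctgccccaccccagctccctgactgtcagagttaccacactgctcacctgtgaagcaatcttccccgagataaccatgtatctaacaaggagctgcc
Itgam, chr7:128062390-128062639, plus strand: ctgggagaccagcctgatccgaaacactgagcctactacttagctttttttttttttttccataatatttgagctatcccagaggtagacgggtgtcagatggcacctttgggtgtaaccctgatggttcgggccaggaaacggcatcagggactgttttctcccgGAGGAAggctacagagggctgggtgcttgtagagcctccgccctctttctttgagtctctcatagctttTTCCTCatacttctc
Cd68, chr11:69666171-69666420, minus strand: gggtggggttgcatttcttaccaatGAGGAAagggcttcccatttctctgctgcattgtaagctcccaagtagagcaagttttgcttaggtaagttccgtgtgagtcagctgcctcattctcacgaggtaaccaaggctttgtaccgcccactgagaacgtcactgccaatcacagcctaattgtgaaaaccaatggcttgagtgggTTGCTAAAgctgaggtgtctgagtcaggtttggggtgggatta

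The RefSeq table held windows for 7 of the 10 genes, not for Csf1r, Tyrobp and Spi1. The PU.1 core was present in 4 of the 7 (Cst3, S100a8, Itgam and Cd68), against 23.3% of all 32851 windows of the same length, and the C/EBP letters in 2 of the 7 (S100a9 and Cd68), against 9.56%. In Itgam the PU.1 letters stood 84 and 15 bases before the start, the second on the opposite strand. A match of letters describes the sequence and is no measurement of binding.

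Across the group, 9 of the 10 genes were called higher in treated than untreated B6 mice and 9 did not overlap, with a median log2 difference of 1.89 against -0.002 over all genes tested. Of all 13115 genes, 8.74% were called higher and 6.12% lower in this comparison, and 19.4% were higher without overlap. In SLE123, 0 of the 10 genes were called by limma, where 0.0381% of all genes were called in either direction. At an unadjusted p under 0.05 there were 6 (Lyz2, Csf1r, Cd68, Tyrobp, Cst3 and Spi1), and voom on the recovered fragments also called 0. All but Itgam had a negative difference in SLE123, 7 were lower without overlap against 6.02% of all genes, and the median was -0.81 against 0.038 over all genes. Without untreated SLE123 mouse 3 the median of the 10 genes was -0.50.

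The treatment effects of the strains differed by a direct test. In a fit of all 12 mice, the effect in SLE123 minus that in B6 was negative for all 10 genes and called for 9, where 2.38% of all genes were called lower and 1.27% higher. The lower and higher counts over all genes were 312 and 166, and they became 356 and 92 when each library was centred on its median and 323 and 96 when libraries were rescaled to fragments outside immunoglobulin genes. The difference was -4.40 ± 0.687 for Lyz2 (limma, adjusted p = 0.00653) and -3.97 ± 0.414 for Tyrobp (adjusted p = 8.47e-04), and the median of the 10 genes was -2.65 against 0.043 over all genes. Itgam had the smallest difference, -0.97 ± 0.230 (limma, adjusted p = 0.0436). Cd68, at -1.22 ± 0.314, was not called (limma, adjusted p = 0.0572). Without untreated SLE123 mouse 3, 7 of the 10 were called, and without untreated B6 mouse 4, treated SLE123 mouse 2 or treated SLE123 mouse 3 there were 5.

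Of the 9 genes called in that fit, Lyz2, Tyrobp, Cst3, Mpeg1 and Spi1 kept the call in all 12 fits that left out 1 mouse, and the others did not. Csf1r kept it in 7 of 12 and lost it without untreated B6 mouse 4 or 5, treated B6 mouse 1 or treated SLE123 mouse 2 or 3 (limma, adjusted p of up to 0.0604). S100a8 kept it in 5 of 12 and lost it without any 1 untreated B6 mouse, treated B6 mouse 3 or 5 or treated SLE123 mouse 2 or 3 (adjusted p from 0.0512 to 0.0699). S100a9 kept it in 4 of 12 and lost it without untreated B6 mouse 3 or 4, any 1 treated B6 mouse, untreated SLE123 mouse 3 or treated SLE123 mouse 2 or 3 (adjusted p from 0.0562 to 0.0785). Itgam kept it in 3 of 12 and lost it without any 1 untreated B6 mouse, treated B6 mouse 1 or 5, untreated SLE123 mouse 3 or any 1 treated SLE123 mouse (adjusted p from 0.0507 to 0.106).

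**Figure D2:**
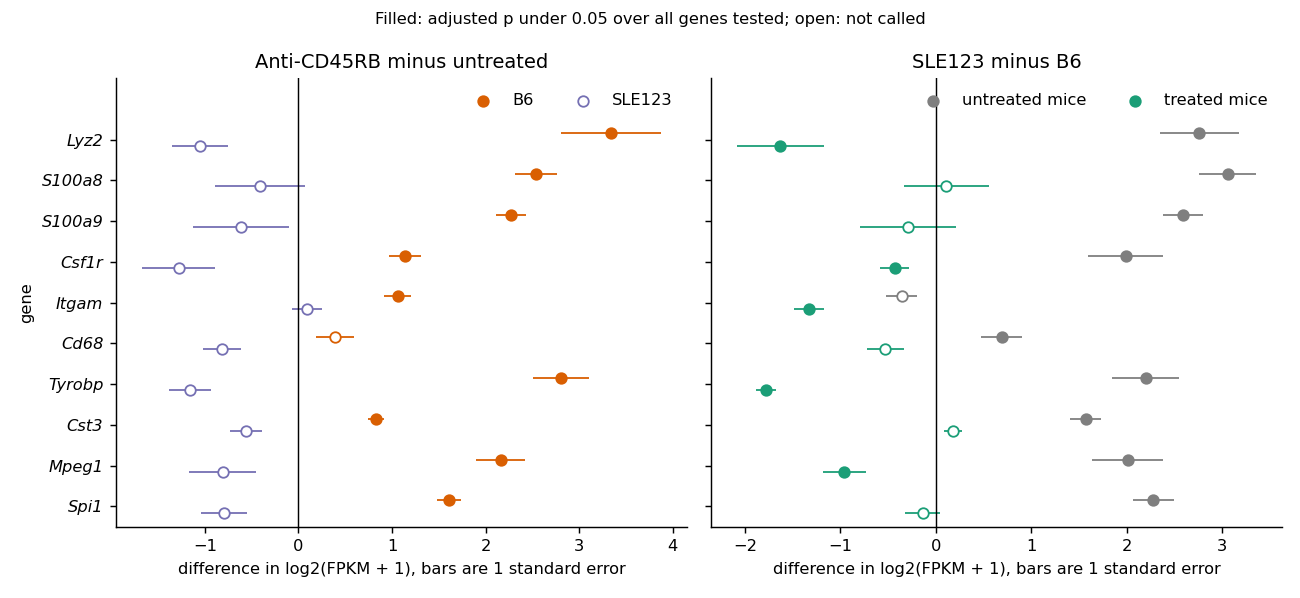
Difference in log2(FPKM + 1) of each gene, with bars of 1 standard error, between treated and untreated mice of each strain (left) and between SLE123 and B6 mice (right). Filled points were called at an adjusted p under 0.05. On the left, B6 values run from 0.39 to 3.34 and SLE123 values from -1.28 to 0.09. On the right, 9 of the 10 genes lie above 0 without treatment and 8 of the 10 below 0 after treatment.

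The strains were already apart before treatment. In untreated mice, 9 of the 10 genes were called higher in SLE123 than in B6 and 9 were higher without overlap, with a median log2 difference of 2.10 against -0.025 over all genes. In this comparison 22.8% of all genes were called higher, 20.1% lower, and 29.1% were higher without overlap. The widest was S100a8, with 65.3 times the fragments per depth (exact 95% counting interval 22.0 to 319, log2 difference 3.06 ± 0.301, limma, adjusted p = 2.89e-04). Csf1r was 15.9-fold and Spi1 10.6-fold higher in FPKM (log2 differences 1.99 and 2.28, limma, adjusted p = 0.00645 and 2.27e-04). Without untreated SLE123 mouse 3 the Csf1r ratio was 8.76 (log2 difference 1.49), and without untreated B6 mouse 3 it was 23.9. These values share their untreated mice with the treatment comparisons above and are not independent of them. The 5 liver genes summed to 43.1 to 45.2 FPKM in untreated B6 mice and to 0.0767 to 0.483 FPKM in untreated SLE123 mice. Library differences that go with strain cannot be told apart from strain here, and their part was not tested.

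Itgam ran the other way in untreated mice, with every SLE123 mouse below every B6 mouse and a log2 difference of -0.36 (95% interval -0.73 to 0.01, limma, adjusted p = 0.103). When values were rescaled to the same sum in every library (TPM), the difference was -0.75 with an adjusted p of 0.0136 by limma, but that scaling also moved the median of all genes to -0.379. It turned the counts over all genes from 2990 higher and 2631 lower into 1914 higher and 5974 lower, and leaving out immunoglobulin fragments gave 3666 and 1770. Cd68, 1.78-fold higher in untreated SLE123 mice (limma, adjusted p = 0.0343), was at an adjusted p of 0.0533 without untreated SLE123 mouse 3 and also lost its call without B6 mouse 4 or 5 and on the TPM scale.

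After treatment, 5 of the 10 genes were called lower in treated SLE123 than in treated B6 mice and did not overlap (Lyz2, Csf1r, Itgam, Tyrobp and Mpeg1), where 22.5% of all genes were called lower, 29.6% higher, and 27.1% were lower without overlap. The counts of 3881 higher and 2955 lower became 2442 and 4480 on the TPM scale and 4634 and 2334 without immunoglobulin fragments, and 3529 and 3491 after centring. Treated B6 mice had 3.82 times the Tyrobp, 3.80 times the Itgam and 3.79 times the Lyz2 of treated SLE123 mice (log2 differences -1.78, -1.33 and -1.63, limma, adjusted p = 5.58e-05, 5.11e-04 and 0.0213). Lyz2 lost its call without treated SLE123 mouse 2 or 3 (limma, adjusted p = 0.0605 and 0.0699) and with no filter on low values (0.0869), and without treated B6 mouse 1 its ratio was 2.15 (log2 difference -1.07). Mpeg1 was at an adjusted p of 0.0517 by limma with no filter. Csf1r was the weakest call, at -0.43 with an adjusted p of 0.0478 by limma, and lost it when any of 5 of the 6 mice was left out.

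S100a8, S100a9, Cst3 and Spi1 did not separate the treated groups. Their log2 differences were 0.11 (95% interval -0.95 to 1.16), -0.29 (-1.49 to 0.90), 0.18 (-0.04 to 0.40) and -0.14 (-0.57 to 0.29). The sign of S100a8 turned to -0.06 on the TPM scale. Leaving out treated SLE123 mouse 1 gave -0.40 for S100a8, -0.93 for S100a9, which was then called (limma, adjusted p = 0.00137), 0.28 for Cst3, which was then called higher (adjusted p = 0.00998), and 0.02 for Spi1. The median of the 10 genes was -0.48, against 0.028 over all genes, and -0.72 without that mouse.

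Levels of the 10 genes varied together across the 12 mice, though not as 1 block. Over the 12 mice, Pearson's r of log2(FPKM + 1) was 0.96 between S100a8 and S100a9, 0.96 between Lyz2 and Tyrobp and 0.95 between Lyz2 and Mpeg1. Within groups, after the group means were removed, r between S100a8 and S100a9 was 0.84 and that between Csf1r and Mpeg1 was 0.91. By contrast, S100a8 and Spi1 had an r of 0.86 over all mice and -0.09 within groups. Itgam had an r of 0.02 with Csf1r and -0.25 with Cst3 over all mice. All these points share their libraries and the 4 group means, and they are given as a description.

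**Figure D3:**
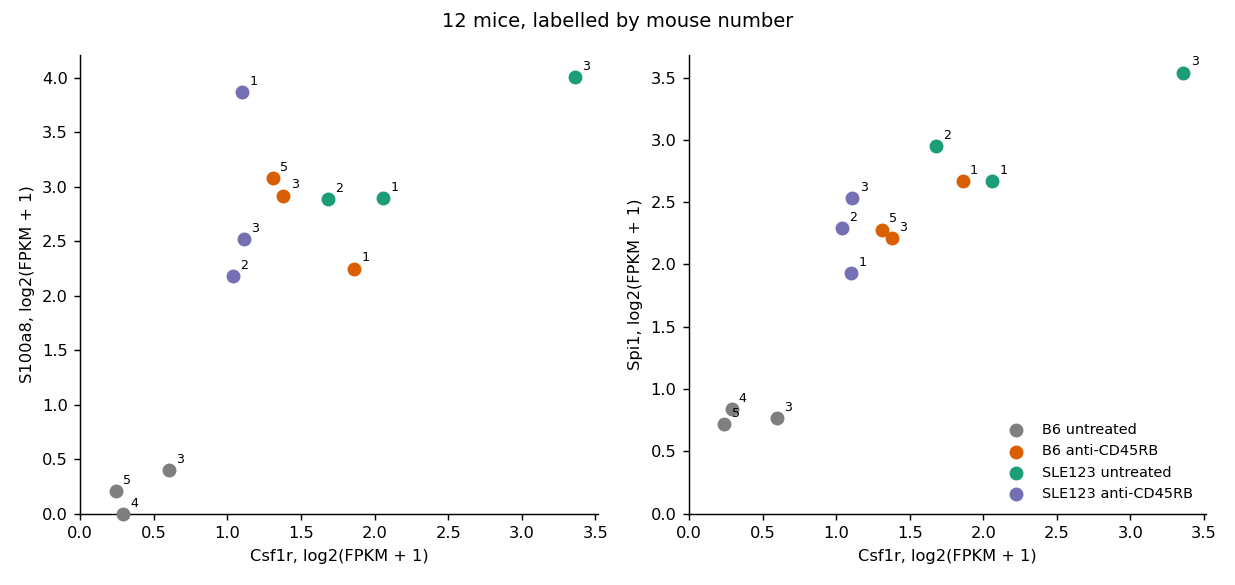
Csf1r against S100a8 (left) and Spi1 (right) in log2(FPKM + 1), with 1 point for each of the 12 mice, coloured by group and labelled by mouse number. The 3 untreated B6 mice sit at the lower left in both panels. Treated SLE123 mouse 1 has a high S100a8 (13.6 FPKM) at a low Csf1r (1.15 FPKM), and untreated SLE123 mouse 3 is highest on every axis.

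For Cst3, Csf1r and Mpeg1, the genes nearest in pattern included genes of B cells or of antigen presentation. Among 11203 protein-coding genes past the filter, Cst3 was closest to Cd79a (r = 0.989 over the 12 mice), the Ig-α chain of the B cell receptor, with Cd74, the invariant chain of MHC class II, also near (0.979). Csf1r was closest to the MHC class II chaperone chain H2-DMb2 (0.963), and the B cell kinase Blk was also near (0.957). Mpeg1 came nearest to the class II chain H2-Aa (0.971). Spi1 came nearest to the inhibitory Fc receptor Fcgr2b (0.983), which both B cells and myeloid cells carry. Csf2rb (0.982) and Lat2 (0.978) were almost as near to Spi1.

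Tyrobp, Lyz2 and Cd68 had myeloid neighbours. Tyrobp was nearest to Alox5ap (0.960), which leukotriene synthesis needs, and Fcer1g was also near (0.953). Lyz2 was nearest to Tyrobp (0.958) and Mpeg1 (0.955). Cd68 was nearest to the C-type lectin Clec4a1 (0.936). Itgam was nearest to Clu (0.961), which encodes the secreted chaperone clusterin. S100a8 and S100a9 were nearest to each other (0.962). Next came Fes (0.954) and Nuak2 (0.943) for S100a8, and Emilin2 (0.938) and Parvb (0.932) for S100a9.

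Further myeloid markers were examined from lists. Of 20 other neutrophil genes, 10 were tested and 6 rose in treated B6 mice, among them the growth factor receptor Csf3r, from 0.0890 to 0.111 FPKM to 0.786 to 1.31 FPKM (log2 difference 0.89, limma, adjusted p = 0.00431). Ctsg, a protease of primary granules, rose by 1.25 (adjusted p = 0.0241). In SLE123 none of the 10 was called. Over all genes, 8.74% were called higher in treated B6 mice and 0.0381% were called in SLE123. Ly6g, the marker used to define mouse neutrophils, did not exceed 0.114 FPKM in any library, and Stfa2l1 was listed at 0 outside treated B6 mice.

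Primary granule genes differed widely between the strains. Mpo (myeloperoxidase) was 1.58 to 2.89 FPKM in untreated B6, 3.49 to 10.9 FPKM in treated B6, 45.2 to 61.2 FPKM in untreated SLE123 and 28.0 to 39.6 FPKM in treated SLE123 mice. Elane, Prtn3 and Ctsg, the serine proteases stored with it, ran in parallel, and in untreated mice all 4 were called higher in SLE123, by log2 differences of 3.77 to 4.08 (limma, adjusted p between 6.81e-06 and 4.73e-05). In treated mice the same 4 genes were also higher in SLE123 (log2 differences 1.53 to 2.32, limma, adjusted p between 7.39e-04 and 0.00570). With these 4 included, 9 of the 10 tested genes of the neutrophil list were called higher in untreated SLE123 mice and 5 in treated ones. Over all genes, 22.8% and 29.6% were called higher in these comparisons.

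Of 18 other monocyte and macrophage genes, 8 were tested and 3 rose in treated B6 mice, against 8.74% of all genes. Ly6c2, of inflammatory monocytes, rose from 6.40 to 8.37 FPKM to 25.1 to 36.4 FPKM (log2 difference 1.95, limma, adjusted p = 7.73e-04), Ccr2 by 0.81 and Cx3cr1 by 0.88 (adjusted p = 0.00144 and 0.0150). Ly6c2 and Ccr2 are also expressed by activated T cells. Several defining macrophage genes were too low to test. Adgre1 (F4/80) was listed at 0.0191 to 0.0511 FPKM in untreated B6 mice (6 fragments in all) and at 0.275 to 0.591 FPKM in treated B6 mice (56 fragments). Mrc1, the mannose receptor, was at 0.0103 to 0.0347 and 0.122 to 0.234 FPKM in the same groups, and neither gene's groups overlapped. In B6 mice Mertk did not exceed 0.0386 FPKM and C1qa 0.119 FPKM. Of the 5 red pulp macrophage genes, 4 were tested and none was called in B6 or in SLE123 with treatment. Over all genes, 8.74% were called higher and 6.12% lower in B6, and 0.0381% were called in SLE123.

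Markers of further cell types also differed between the groups, and several lists did not follow the order of the 10 genes. The part of these cell types in the results above was not tested. In treated against untreated B6 mice, limma called 8.74% of all genes higher and 6.12% lower. It called higher 5 of 6 B cell genes, 4 of 5 dendritic cell genes tested and 3 of 4 NK cell genes. Also higher were 4 of 5 basophil genes, 3 of 3 platelet genes tested and 2 of 5 erythroid genes tested. So were 1 of 2 eosinophil genes tested and 1 of 5 plasma cell genes, while 3 of 9 T cell genes were lower. Summed over its 6 genes, the B cell list held 6.11 to 7.30 FPKM in untreated B6, 25.0 to 33.5 FPKM in treated B6, 62.0 to 223 FPKM in untreated SLE123 and 36.7 to 56.5 FPKM in treated SLE123 mice. The 10 genes under study summed to 44.9 to 55.3, 143 to 234, 156 to 274 and 117 to 127 FPKM in the same order, and the 9 T cell genes to 2330 to 2390, 2216 to 2269, 1961 to 2502 and 2393 to 2422 FPKM.

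The dendritic cell list, of 7 genes, summed to 1.28 to 2.36 FPKM in untreated and 10.3 to 11.8 FPKM in treated B6 mice, and to 2.49 to 5.64 and 2.11 to 2.42 FPKM in untreated and treated SLE123 mice. Itgax and Cd209a led it in treated B6 mice (limma, adjusted p = 6.53e-04 and 0.00132). The 4 NK cell genes, cells that also carry Tyrobp and Itgam, summed to 44.9 to 49.0 FPKM in untreated B6, 66.6 to 93.2 FPKM in treated B6, 16.8 to 19.1 FPKM in untreated SLE123 and 25.9 to 30.7 FPKM in treated SLE123 mice. Ncr1, the NK cell receptor NKp46, was the most certain of them, at 0.259 to 0.499 FPKM in untreated and 5.35 to 6.40 FPKM in treated B6 mice (log2 difference 2.32, limma, adjusted p = 2.74e-04), and at most 1.10 FPKM in SLE123 mice. Itgam, the dendritic cell list and the NK cell list were each highest in treated B6 mice, and the B cell list was highest in untreated SLE123 mice. Between the SLE123 groups the NK cell sums did not overlap, while the Itgam levels did. Of the 4 NK cell genes, 3 had a positive and 1 a negative treatment difference in SLE123. None was called there, where 0.0381% of all genes were called. Between untreated strains, 2 of their differences were positive and 2 negative. Genes other than Ncr1 made up most of the NK cell sum in untreated B6 mice. Which cells the Itgam transcripts came from was not tested.

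**Figure D4:**
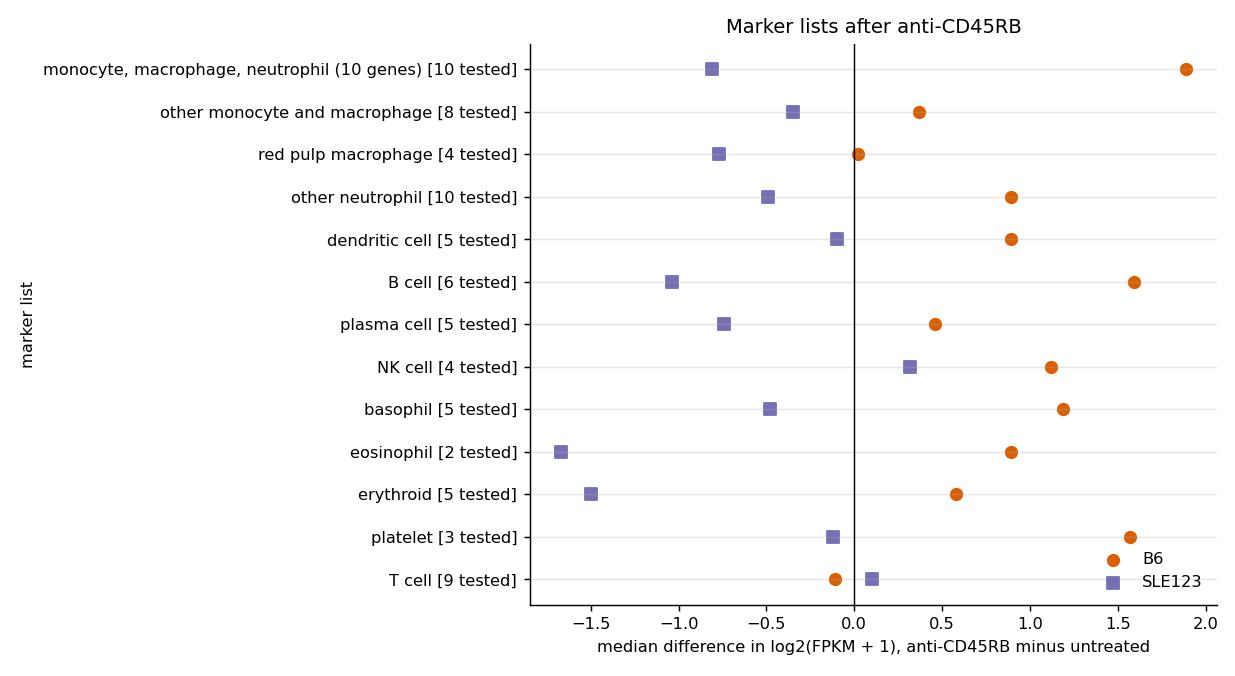
Median difference in log2(FPKM + 1) between treated and untreated mice over the tested genes of each marker list, in B6 (circles) and SLE123 (squares). The 10 genes under study have a median of 1.89 in B6 and -0.81 in SLE123, the B cell list 1.59 and -1.04, and the T cell list -0.11 and 0.10.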

How the data were processed

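Purified CD4+ T cells of 12 mice were sequenced as poly-A RNA, 1 library per mouse, and grouped by strain and treatment labels and titles. The authors deposited FPKM values per Ensembl gene; per the labels, the submitters' processing notes name CASAVA 1.8, STAR and mm10, and the annotation and counting program are not given in the sources used here. The study's DESeq2 test needs counts and was not run. Values were whole multiples of 1 fragment (100% of 23230 genes above 0, largest deviation 9.8e-07 at a tolerance of 0.001), which gave the fragment totals of 13562933 to 23641603. GENCODE release 21 of mouse (M21) supplied symbols for 97.8% of the identifiers (34490 of 35275).

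Genes averaging 0.5 FPKM or more were tested on log2(FPKM + 1), a pseudocount of 1, by limma 3.58.1 in R 4.3.3 (lmFit, eBayes with a trend, two-sided) within the 6 mice of each comparison, or all 12 for the interaction, with Benjamini-Hochberg adjustment over all genes tested and calls under 0.05. The fit was tested on simulated data. Tables and plots were made with Python 3.11.15, pandas 2.3.3, numpy 2.4.6, scipy 1.17.1, Biopython 1.88 and matplotlib.

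The genes, marker lists and tests were chosen with earlier results of these data known. Genes outside the 10 are named by rule: in each list and comparison those called, at most 4 by adjusted p, plus the 3 genes most correlated with each member. List genes given only as values near 0, and Cd8b1, Itgb2, Itgal and single library values, were chosen after their values were seen. Alternatives were a pseudocount of 0.1, no filter or a filter at 1 FPKM, rescaling to TPM, median centring, voom on recovered fragments, all 12 mice in 1 fit, a block for the title number, and leaving out the mice one by one. Rescaling to fragments outside immunoglobulin genes was added after seeing the data.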

Additional observations from a re-analysis of the deposited data

Results flagged for a closer look

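The treatment effect differed between the strains for 9 of the 10 genes, by the interaction term of a limma fit of all 12 mice (SLE123 effect of treatment less the B6 effect, in log2(FPKM + 1), adjusted p under 0.05). For the regulator Spi1 the difference was -2.42, and for the receptor Csf1r also -2.42. The adapter Tyrobp had -3.97 and the integrin chain Itgam -0.97. Among the secreted and granule proteins the values were -4.40 for Lyz2, -2.96 for S100a8, -2.88 for S100a9 and -1.39 for Cst3. The pore-forming gene Mpeg1 had -2.97. The smallest of these in adjusted p was Tyrobp (8.47e-04) and the largest Itgam (0.0436). In all 9, each treated B6 mouse was above each untreated B6 mouse, and in 6 of them (Lyz2, Csf1r, Tyrobp, Cst3, Mpeg1 and Spi1) each treated SLE123 mouse was below each untreated one. Over all genes, 2.38% were called lower and 1.27% higher in the interaction. Without overlap, 19.4% were higher in B6 and 6.02% lower in SLE123. With 1 mouse left out, Csf1r, S100a8, S100a9 and Itgam kept the interaction call in 7, 5, 4 and 3 of 12 fits. The 9 values rest on the same 12 mice and are not independent of each other.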

How the results depend on the processing

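The direction of the median difference of the 10 genes held under all alternatives run, in all 5 comparisons. Of the 10 genes, 9 were called in B6 without any 1 mouse, and 8 with no filter (Lyz2 lost) or with all 12 mice in 1 fit (Csf1r lost). Leaving out 1 mouse, 8 to 9 were called between untreated strains, 3 to 6 between treated strains, 0 in SLE123, and 5 to 10 in the interaction. Between treated strains, 3 were called without treated SLE123 mouse 2 or 3, and 2 with no filter. Medians with 1 mouse left out ran from 1.71 to 1.93 in B6, -0.93 to -0.50 in SLE123, 1.75 to 2.33 between untreated and -0.72 to -0.34 between treated strains, and -2.83 to -2.35 in the interaction. A pseudocount of 0.1 gave 2.59 in B6, 2.84 between untreated strains and -3.88 in the interaction. Voom gave 2.76, 2.95 and -4.07. Rescaling to TPM gave 2.26 in B6, -0.72 between treated strains and -3.09 in the interaction, and gave a median over all genes of -0.379 between untreated strains, in place of -0.025. The cause of these shifts was not tested.

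Whether title numbers pair the mice could not be decided, because deviations from the mean of a group of 3 are not independent. Same-numbered mice deviated from their group means with correlations of -0.140 and -0.094 in B6 and 0.137, -0.161 and 0.266 in SLE123. Mice with different numbers gave -0.134 to 0.200 in B6 and -0.327 to 0.211 in SLE123. Untreated and treated B6 mice share only numbers 3 and 5. With the number as a replicate block, the B6 effect rests on the mice of those numbers, which leaves little to measure spread from. In that fit 0 of the 10 genes were called in B6 (limma, adjusted p from 0.0821, 9 at an unadjusted p under 0.05, median 1.64). In the interaction 2 were called (Tyrobp and Spi1). Over all genes the block gave 0 calls in B6 (2466 unadjusted) in place of 1948, 34 in the interaction in place of 478 and 3414 between treated strains in place of 6836. Untreated strains share 1 number, so no block was fitted there.

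Counts over all genes also fell in B6 to 1134 with no filter, to 815 with all 12 mice in 1 fit and to 675 without untreated mouse 4. In SLE123 they were 5, with 21 on the TPM scale, 53 with all 12 mice, 3 by voom and 1 without any of 4 mice. Without untreated SLE123 mouse 1 the interaction had 2917, and without untreated B6 mouse 4 it had 205. Between untreated strains 3672 remained called without untreated B6 mouse 4, from 5621.

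Signs turned only where no call was made in the fit reported. Leaving out 1 mouse, Itgam in SLE123 ran from -0.06 to 0.19, and between treated strains S100a8 ran from -0.40 to 0.45, S100a9 from -0.93 to 0.09 and Spi1 from -0.28 to 0.02. Untreated SLE123 mouse 2 and treated SLE123 mouse 1 turned Itgam, treated B6 mouse 1 and treated SLE123 mouse 1 turned S100a8 and Spi1, and treated SLE123 mouse 3 turned S100a9. Between treated strains S100a8 was also -0.06 on the TPM scale, and S100a9 was 0.05 with the replicate block. Of the 790 single-gene values, 703 kept direction and side of the threshold, 70 lost a call and 8 gained one. Depth limits S100a8 in untreated B6 mice most, with 3 fragments in all.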

Other observations

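Genes of granules other than those of neutrophils were also recorded. Mcpt8, a protease of mouse basophils, was 0.259 to 0.581 FPKM in untreated B6, 4.14 to 7.93 FPKM in treated B6, 26.0 to 30.9 FPKM in untreated SLE123 and 7.08 to 10.2 FPKM in treated SLE123 mice. It was called lower after treatment in SLE123 (log2 difference -1.59, limma, adjusted p = 0.0208) and higher in B6 (2.23, adjusted p = 0.00175), with no overlap in either strain. Prg2, the major basic protein of eosinophils, behaved likewise, at 1.04 to 1.65, 2.55 to 6.78, 36.0 to 54.5 and 8.58 to 12.9 FPKM in the same groups, with differences of 1.33 in B6 and -2.02 in SLE123 (limma, adjusted p = 0.0319 and 0.0328). They were 2 of the 5 genes called by limma in SLE123 out of 13115.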
